A study of Mus musculus with 2 samples.

Results

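The genes described here encode the nuclear subunits of the oxidative phosphorylation machinery of mitochondria. They were chosen by name, as every symbol of the Ndufa, Ndufb, Ndufc, Ndufs and Ndufv series, the 4 Sdh genes, and the Uqcr, Cox4 to Cox8 and Atp5 series, with names ending in -ps left out and with at least 200 counts over both sections together. Of 88 matching names among the 54658 symbols in the files, 79 reached 200 counts, and 14516 genes of all kinds did. These counts chose the members and are given below as a description. The sections compared were 1 section of mouse intestine from animals of the DPF2 KO genotype and 1 from WT mice, each from mice given X-rays at 10 Gy. The product of Dpf2 belongs to the BAF chromatin remodelling complex, and the series asks what it does in intestinal injury caused by radiation. Neither genotype had an unirradiated section. The strain, sex and age of the mice, the tissue in which Dpf2 was deleted, the time after irradiation and the stretch of gut were not given in the sources used here.

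In oxidative phosphorylation, complexes I to IV pass electrons from metabolic fuels to oxygen and, except for complex II, pump protons across the inner mitochondrial membrane, and complex V (ATP synthase) uses the returning protons to make ATP. Complex II, succinate dehydrogenase, is also an enzyme of the citric acid cycle and is the only complex whose subunits are all encoded in the nucleus. In the intestine, absorptive cells of the villus and proliferating cells of the crypt both depend on mitochondria, and several subunits of complex IV come in isoforms that differ between muscle, fat and other tissues.

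The section labelled KO held 88056 barcodes with 89754886 counts and the section labelled WT held 50970 barcodes with 39824941 counts. With 1 section per genotype no test of a difference was possible. Ratios between the sections therefore cannot be assigned to the genotype, and the 95% intervals beside them and beside shares cover counting error only. Dpf2 itself stood at 26.0 CPM (a gene's counts scaled to a section total of 1000000) in the section labelled KO and at 23.6 CPM in the section labelled WT, a log2 ratio of 0.14 (0.03 to 0.25). Its level thus goes against the label, although reads from outside a deleted part would check nothing, and the groups are called by their labels. The sections also differed in their cells. In the squares described below, the 22 villus enterocyte markers summed to 39810 CPM in the section labelled KO and 676 CPM in the section labelled WT, and the 13 Paneth cell markers summed to 5984 CPM in the section labelled KO and 102719 CPM in the section labelled WT. The part of this difference in what follows was not tested across whole sections. Values within squares rich in the same markers are given further down.

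All 37 names of the mitochondrial genome were listed at 0 counts in both sections, so the subunits encoded there could not be compared. The same held for the 2041 symbols placed on chromosome X, among them Cox7b, Ndufa1 and Ndufb11, the 3 matching names with 0 counts. The other 6 names below the minimum were Cox4i2 (129 counts over both sections), Ndufa4l2 (126), Ndufs6b (51), Cox6a2 (33), Ndufa11b (20) and Cox8c (1). Just above the minimum stood Cox6c2 with 327 counts, Atp5s with 659 and Cox8b with 898. Cox6c2, Cox8b and Cox7a1 had 59, 9 and 178 counts in the section labelled WT, so they passed the minimum only through the section labelled KO. They are counted below among the members at least 2-fold higher there, as a description.

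Most oxidative phosphorylation genes took a larger share of the counts in the section labelled KO. Together the 79 members made up 2.91% of all counts there and 1.58% in the section labelled WT, a 1.85-fold difference and a log2 ratio of 0.88. Of the members, 71 had a log2 ratio of KO over WT above 0 and 8 below it. Of the 14516 genes of all kinds, 6208 were above 0 and 8308 below. These numbers also stand beside the counts above and below 0 given for the whole sections by complex and by list. Their median was 0.85, with quartiles of 0.47 and 1.11, while the median over the 14516 genes with 200 or more counts was −0.18. The section labelled KO was higher by 2-fold or more in 30 members (38.0%), where 15.7% of all genes passed that mark, and lower by 2-fold or more in 1 member, where 19.7% of all genes did. The count of 30 became 42 under median-of-ratios scaling, where 18.8% of all genes passed the mark. With Paneth and enterocyte markers left out of the total it became 19, where 13.2% of all genes did. Over barcodes rich in epithelial markers it became 12. The share of all genes was not computed there, so no excess can be read from that count. Each section was also cut by position into 4 parts with equal numbers of barcodes. In 68 members all 4 parts of the section labelled KO lay above all 4 parts of the section labelled WT, in 2 (Ndufb2 and Atp5g1) all 4 lay below, and in 9 the parts overlapped. Over all genes, 31.5% had all parts of the section labelled KO above and 42.8% all below, so parts that do not overlap are common here. The parts of 1 section share their animal and library and are no replicates. A larger share of the counts can come from more cells that use these genes or from more RNA per cell, which cannot be told apart here.

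**Figure D1:**
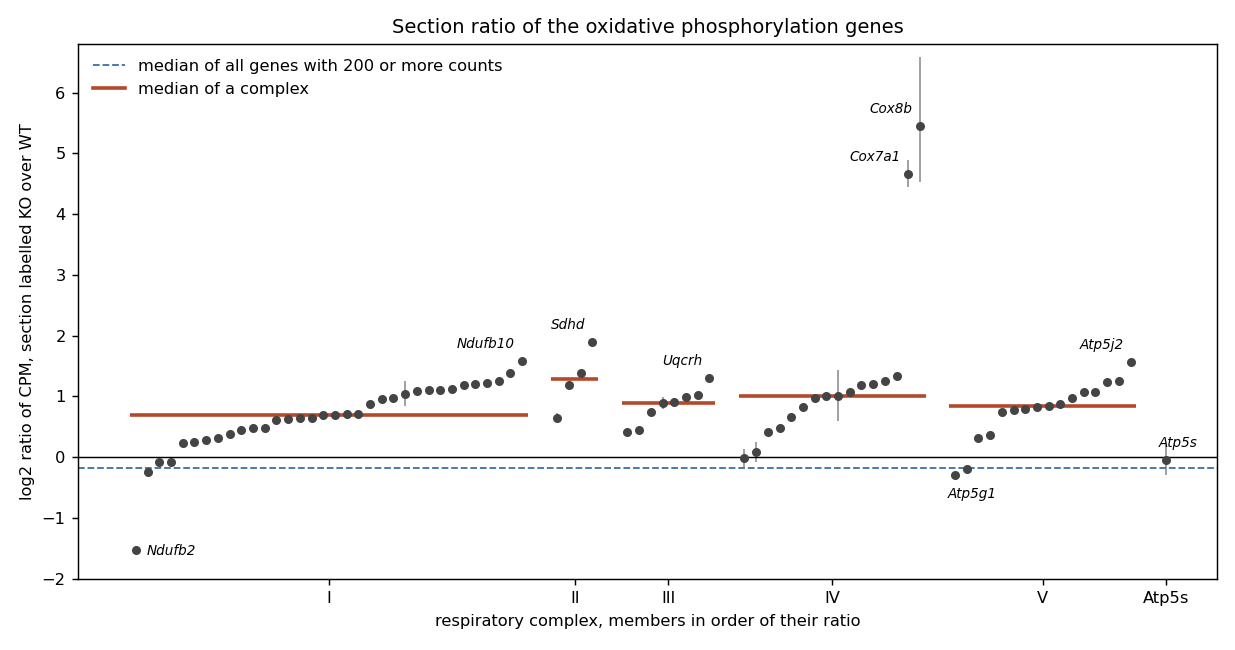
Each point is 1 member, placed by complex and in order of its log2 ratio of CPM, section labelled KO over section labelled WT, and bars are 95% counting intervals. Of the 79 points 71 lie above 0, and the median of all genes is at −0.18, with Cox7a1 (4.67) and Cox8b (5.45) far above the rest and Ndufb2 (−1.52) far below. Cox7a1 and Cox8b passed the minimum of counts only through the section labelled KO.

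The 5 complexes differed in the size of the ratio. Complex II stood highest, with a median log2 ratio of 1.29 over its 4 genes, followed by complex IV at 1.01 over 16, complex III at 0.90 over 8, complex V at 0.84 over 16 and complex I at 0.69 over 34. Summed over its genes, complex II had 897 CPM in the section labelled KO and 328 CPM in the section labelled WT, a 2.73-fold difference. Complex V summed to 9648 CPM in the section labelled KO and 5011 CPM in the section labelled WT, complex IV to 8443 and 4408 CPM in the same order of sections, and complex III to 3199.9 CPM and 1776 CPM. Complex I had the smallest summed ratio, 1.63-fold, with 6932 CPM in the section labelled KO and 4254 CPM in the section labelled WT. In each of these sums the 4 parts of the section labelled KO lay above the 4 parts of the section labelled WT.

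Complex I takes electrons from NADH and has the most genes. Of these 34, 30 had ratios above 0 and 11 were higher by 2-fold or more in the section labelled KO, where 15.7% of all genes were. Ndufb10, an accessory subunit, had 565 CPM in the section labelled KO and 188 CPM in the section labelled WT, a 3.01-fold difference and a log2 ratio of 1.59 (1.55 to 1.62). Ndufs5, another accessory subunit, had 156 CPM in the section labelled KO and 59.5 CPM in the section labelled WT, with a log2 ratio of 1.39. The remaining accessory genes at least 2-fold higher were Ndufb3 (1.25), Ndufa6 (1.18), Ndufc1 (1.13), Ndufa11 (1.10), Ndufv3 (1.10), Ndufa5 (1.09) and Ndufb4c (1.04), a copy of Ndufb4 by its name, for which split reads cannot be told apart. Ndufa2, among the most counted genes of the complex, stood at 0.60. Among the core subunits of the peripheral arm, where electrons pass from NADH to ubiquinone, the values were spread widely: Ndufs1 stood at 1.22 and Ndufv2 at 1.20, Ndufs7 at 0.72, Ndufs3 at 0.49 and Ndufv1 at 0.31, and Ndufs8 at −0.07 had parts that overlapped between the sections. These core genes were picked by role, after their values had been seen.

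Ndufb2, an accessory subunit in the membrane arm of complex I (chromosome 6, 39592565 to 39599843 on GRCm38), was the 1 member lower by 2-fold or more in the section labelled KO. It had 43.4 CPM (3895 counts) in the section labelled KO and 125 CPM (4961 counts) in the section labelled WT, 2.87-fold lower in the section labelled KO, with a log2 ratio of −1.52 (−1.58 to −1.46). The 4 parts lay between 37.1 and 50.4 CPM in the section labelled KO and between 115 and 135 CPM in the section labelled WT, so the sections did not overlap. Ndufc2, the next lowest gene of the complex, differed little, with 210.3 CPM in the section labelled KO and 248 CPM in the section labelled WT (log2 ratio −0.24), and its parts overlapped.

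All 4 genes of complex II had higher values in the section labelled KO. Of these, 3 were higher by 2-fold or more, beside 15.7% of all genes. Sdhd, 1 of the membrane anchors, had 377 CPM in the section labelled KO and 101 CPM in the section labelled WT, a 3.72-fold difference (log2 ratio 1.90, 1.85 to 1.94). Sdha, the flavoprotein that oxidises succinate, had 285 CPM in the section labelled KO and 109 CPM in the section labelled WT, a log2 ratio of 1.39. Sdhc, the other membrane anchor, had 161 CPM in the section labelled KO and 71.2 CPM in the section labelled WT, a log2 ratio of 1.18. The smallest difference was in Sdhb, the iron-sulphur subunit, with 74.0 CPM in the section labelled KO and 47.1 CPM in the section labelled WT (log2 ratio 0.65).

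In complex III, which passes electrons from ubiquinol to cytochrome c, all 8 genes had ratios above 0, and 2 were at least 2-fold higher, beside 15.7% of all genes. Uqcrh, the hinge protein, had 771 CPM in the section labelled KO and 311 CPM in the section labelled WT (log2 ratio 1.31), and Uqcrfs1, the Rieske iron-sulphur protein, had 319.6 CPM and 157 CPM in the same order (1.02). The lowest ratios were those of Uqcrq, at 592 CPM in the section labelled KO and 443 CPM in the section labelled WT (0.42), and of the core protein Uqcrc1 (0.45). Between them stood Uqcr10 at 0.75, the core protein Uqcrc2 at 0.89, Uqcrb, which binds ubiquinone, at 0.91 and Uqcr11 at 0.99.

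Complex IV, cytochrome c oxidase, held the widest range. Cox4i1, the most counted of its genes, had 1536 CPM in the section labelled KO and 871 CPM in the section labelled WT (log2 ratio 0.82), and Cox6a1 had 1282 CPM in the section labelled KO and 556 CPM in the section labelled WT (1.20). Cox6c, which with Cox6c2 may share reads, stood at 1.34, Cox6b1 at 1.18, Cox7c at 1.08, and the matrix-side subunits Cox5b and Cox5a at 0.97 and 0.66. Ndufa4, named after complex I but a subunit of complex IV, stood at 0.41. At the low end, Cox7b2 had 13.7 CPM in the section labelled KO and 13.9 CPM in the section labelled WT (−0.02, −0.17 to 0.13), and Cox6b2, an isoform known from testis, stood at 0.08 (−0.09 to 0.25). Both intervals hold 0, and the parts of both genes overlapped. The 2 highest ratios of the complex, those of Cox7a1 and Cox8b, are described with the isoforms.

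In complex V, 14 of 16 genes had ratios above 0 and 5 were at least 2-fold higher, beside 15.7% of all genes. The catalytic head was represented by Atp5a1, with 1325 CPM in the section labelled KO and 677 CPM in the section labelled WT (log2 ratio 0.97), and by Atp5b, with 1275 CPM in the section labelled KO and 721 CPM in the section labelled WT (0.82). Atp5j2, a small subunit of the membrane part, had the highest ratio, with 668 CPM in the section labelled KO and 225 CPM in the section labelled WT (1.57). In the central stalk, Atp5d stood at 1.24, Atp5e at 0.85 and Atp5c1 at 0.37, and in the peripheral stalk Atp5f1 stood at 1.08, Atp5o at 0.80, Atp5h at 0.74 and Atp5j at 0.32. The parts of Atp5c1 and Atp5j overlapped between the sections. The 2 genes below 0, Atp5g1 and Atp5g2, share their product with Atp5g3, as described next. Atp5s, which the name rule takes in but which is no subunit of the synthase and is called Dmac2l by RefSeq, had 5.04 CPM in the section labelled KO and 5.20 CPM in the section labelled WT.

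The isoform sets compare members within a section, so that their shares need no scaling between sections. Cox7a1 encodes the form of a complex IV subunit known from heart, skeletal muscle and brown fat, and Cox7a2 the form found in most other tissues. Cox7a1 had 114 CPM (10196 counts) in the section labelled KO and 4.47 CPM (178 counts) in the section labelled WT, a 25.4-fold difference (log2 ratio 4.67, 4.45 to 4.89). Its 4 parts lay between 95.04 and 123 CPM in the section labelled KO and between 3.69 and 6.15 CPM in the section labelled WT, far apart. Cox7a2 had 451.5 CPM in the section labelled KO and 226 CPM in the section labelled WT. Cox7a1 therefore made up 20.1% of the counts of the pair in the section labelled KO (95% Clopper-Pearson interval 19.8 to 20.5) and 1.94% in the section labelled WT (1.67 to 2.25). Cox8b, the form of another subunit known from muscle and brown fat, had 889 counts in the section labelled KO and 9 in the section labelled WT. Its 4 parts were uneven in the section labelled KO, from 3.02 to 26.1 CPM, and all lay above those of the section labelled WT. It made up 2.21% of the counts of Cox8a and Cox8b in the section labelled KO and 0.122% in the section labelled WT.

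Atp5g1, Atp5g2 and Atp5g3 encode precursors of the same mature protein, the c subunit of the ring that turns in the membrane part of ATP synthase. Atp5g3 had 1318 CPM in the section labelled KO and 551 CPM in the section labelled WT (log2 ratio 1.26). Atp5g1 had 142 CPM in the section labelled KO and 172 CPM in the section labelled WT (−0.28), with parts that did not overlap, and Atp5g2 had 96.6 CPM and 110.2 CPM in the same order (−0.19), with parts that did. Of the counts of the 3 genes, Atp5g3 held 84.7% in the section labelled KO and 66.1% in the section labelled WT, Atp5g1 9.10% and 20.7%, and Atp5g2 6.21% and 13.2%. The isoforms Cox4i2, Cox6a2 and Ndufa4l2 were at most 0.158% of their pairs in either section. Cox6b2 made up 2.22% of its pair in the section labelled KO and 4.63% in the section labelled WT.

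Cox6b2 made up 7.26% of its pair (26 counts) in the adipocyte-rich squares, described below, of the section labelled WT. In those of the section labelled KO it made up 2.19%, and the promoters of this pair are not printed. The promoters printed here belong to the other isoform sets with shares over 5 percentage points apart between the sections or kinds of square. They are the 300 bases from 250 before to 50 after the start that the RefSeq promoter table of GRCm38.p6 lists, 5′ to 3′ on the strand of the gene, and for Cox7a2, Atp5g3 and Atp5g1 that start lies inside the gene's full RefSeq span. Capitals mark matches, on either strand, to 4 motifs that are textbook elements of respiratory genes, written here as NRF1 GCGCA and GCGC around any 1 base, ETS CCGGAAGT, ERR AAGGTCA and YY1 AAGATGGCG. Cox7a1 lies at chr7:30183921-30184220 (plus strand), Cox7a2 at chr9:79759804-79760103 (minus strand), Cox8b at chr7:140900397-140900696 (minus strand) and Cox8a at chr19:7217567-7217866 (minus strand).
Cox7a1: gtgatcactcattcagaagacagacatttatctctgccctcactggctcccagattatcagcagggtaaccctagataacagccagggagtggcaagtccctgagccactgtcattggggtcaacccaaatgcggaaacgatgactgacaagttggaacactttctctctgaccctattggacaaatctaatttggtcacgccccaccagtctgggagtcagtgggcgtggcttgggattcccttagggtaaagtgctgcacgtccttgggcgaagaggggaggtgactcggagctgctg
Cox7a2: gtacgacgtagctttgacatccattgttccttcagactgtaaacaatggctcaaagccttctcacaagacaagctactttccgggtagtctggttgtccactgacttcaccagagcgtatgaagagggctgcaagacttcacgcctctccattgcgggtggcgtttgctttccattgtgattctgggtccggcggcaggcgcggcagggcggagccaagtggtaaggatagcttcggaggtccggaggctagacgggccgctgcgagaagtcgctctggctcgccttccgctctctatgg
Cox8b: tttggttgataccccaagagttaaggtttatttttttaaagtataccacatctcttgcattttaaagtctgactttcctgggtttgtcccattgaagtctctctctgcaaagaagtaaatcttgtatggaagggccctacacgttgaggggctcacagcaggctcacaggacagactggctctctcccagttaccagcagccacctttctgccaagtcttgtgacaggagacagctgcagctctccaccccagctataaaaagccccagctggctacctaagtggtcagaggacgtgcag
Cox8a: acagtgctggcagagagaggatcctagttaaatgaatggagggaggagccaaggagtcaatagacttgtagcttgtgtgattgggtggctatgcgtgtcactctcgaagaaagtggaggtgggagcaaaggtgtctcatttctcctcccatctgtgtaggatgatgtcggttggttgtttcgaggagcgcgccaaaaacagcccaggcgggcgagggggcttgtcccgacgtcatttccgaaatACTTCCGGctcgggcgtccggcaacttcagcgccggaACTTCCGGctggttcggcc
No capitals stand in the first 3, and Cox8a holds 2 matches to the ETS motif. Without a match, only these letters are known to be missing from the window.

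The 3 c subunit genes are set beside each other, since Atp5g3 held the larger share in the section labelled KO and the other two the smaller. Atp5g3 lies at chr2:73911277-73911576 (minus strand), Atp5g1 at chr11:96075582-96075881 (minus strand) and Atp5g2 at chr15:102670998-102671297 (minus strand). Sdhd at chr9:50603800-50604099 (minus strand) and Sdha at chr13:74350191-74350490 (minus strand) are added as the genes of complex II with the highest ratios, chosen after their values had been seen.
Atp5g3: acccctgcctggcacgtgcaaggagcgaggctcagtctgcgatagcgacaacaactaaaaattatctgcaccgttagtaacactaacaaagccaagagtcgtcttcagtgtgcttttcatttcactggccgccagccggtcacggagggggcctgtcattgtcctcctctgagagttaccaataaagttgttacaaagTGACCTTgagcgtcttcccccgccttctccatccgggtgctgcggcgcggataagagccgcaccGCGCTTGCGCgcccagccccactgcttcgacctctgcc
Atp5g1: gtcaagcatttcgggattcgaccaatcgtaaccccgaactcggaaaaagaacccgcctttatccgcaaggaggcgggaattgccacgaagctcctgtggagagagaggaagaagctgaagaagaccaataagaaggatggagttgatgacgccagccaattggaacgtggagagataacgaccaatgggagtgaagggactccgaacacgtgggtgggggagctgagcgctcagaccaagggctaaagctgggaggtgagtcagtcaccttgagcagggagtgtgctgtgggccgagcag
Atp5g2: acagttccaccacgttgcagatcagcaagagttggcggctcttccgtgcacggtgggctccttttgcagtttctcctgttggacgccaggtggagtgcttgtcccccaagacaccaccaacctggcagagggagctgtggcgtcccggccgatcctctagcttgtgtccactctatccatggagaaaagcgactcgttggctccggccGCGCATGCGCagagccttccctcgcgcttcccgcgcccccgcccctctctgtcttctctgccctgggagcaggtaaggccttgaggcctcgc
Sdhd: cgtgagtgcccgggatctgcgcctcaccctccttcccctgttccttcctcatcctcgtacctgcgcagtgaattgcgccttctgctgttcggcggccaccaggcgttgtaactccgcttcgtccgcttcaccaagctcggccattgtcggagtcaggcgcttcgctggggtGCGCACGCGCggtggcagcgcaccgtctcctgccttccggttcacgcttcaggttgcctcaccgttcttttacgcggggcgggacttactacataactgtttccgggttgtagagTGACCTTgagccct
Sdha: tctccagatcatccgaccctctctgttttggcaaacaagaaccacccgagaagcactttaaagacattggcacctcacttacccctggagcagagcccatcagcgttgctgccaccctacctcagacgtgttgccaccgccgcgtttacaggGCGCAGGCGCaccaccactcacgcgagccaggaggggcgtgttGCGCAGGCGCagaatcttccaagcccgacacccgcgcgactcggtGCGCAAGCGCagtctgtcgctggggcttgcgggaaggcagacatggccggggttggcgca
Atp5g3 and Sdhd each hold 1 match to NRF1 and 1 to ERR, Sdha holds 3 to NRF1, Atp5g2 holds 1 to NRF1, and Atp5g1 holds none. Of windows not printed, that of Ndufb2, the member with the lowest ratio, holds 1 match to ERR, and that of Sdhb holds none. Over the 65 members found in the table, 26.2% held the NRF1 motif, against 5.19% of 27025 genes. The YY1 motif was in 10.8% of the members and 1.64% of all genes, the ERR motif in 12.3% and 5.38%, and the ETS motif in 7.69% and 4.31%. A match is a run of letters and says nothing about binding in these sections.

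To compare crypt, villus and muscle, each section was cut into squares with a side of 20 position units, and squares with at least 10 barcodes and 3000 counts were kept, 2101 in the section labelled KO and 1302 in the section labelled WT. A square was called rich in a cell type when its summed markers were in the top 10% of its section and in no other top 10%. In the section labelled KO this kept 88 Paneth-rich, 87 muscle-rich and 209 villus-rich squares, and 122, 123 and 1 were left out for overlap. In the section labelled WT it kept 111, 106 and 94 in the same order, and 19, 24 and 36 were left out. The rule thus removed most Paneth and muscle squares of the section labelled KO alone. No member is among the markers. The squares so chosen are the richest of their own section, not alike between sections. Villus-rich squares had 70315 CPM of villus markers in the section labelled KO and 3643 CPM in the section labelled WT, while the muscle-rich squares of the section labelled KO had 21412 CPM of them beside 10076 CPM of muscle markers, and its Paneth-rich squares 26443 CPM of them. Paneth-rich squares had 18698 CPM of Paneth markers in the section labelled KO and 214300 CPM in the section labelled WT. Paneth markers outweighed the others in the section labelled WT, with 65584 CPM in its villus-rich squares and 104922 CPM in its muscle-rich squares, which had 4074 CPM of muscle markers. The squares are therefore called rich by the rule alone, and most hold several cell types. In the adipocyte-rich squares of the section labelled WT, 4 of the 11 adipocyte markers, Adipoq, Cfd, Lep and Retn, were at 0, the neutrophil and plasma cell markers summed to 1441 and 9867 CPM, while all 11 were detected in those of the section labelled KO.

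Within the section labelled KO the members were nearly level across these squares. Their sum was 27421 CPM in villus-rich, 29678.5 CPM in Paneth-rich, 30201 CPM in proliferating crypt, 28473 CPM in muscle-rich and 28227 CPM in adipocyte-rich squares. In the section labelled WT it ranged more widely, from 11415 CPM in Paneth-rich squares to 18725 CPM in villus-rich and 19603 CPM in proliferating crypt squares, with 13899 CPM in muscle-rich and 14979 CPM in adipocyte-rich squares. Proliferating crypt squares thus had the highest sum in both sections. The section labelled KO was above the section labelled WT in each kind of square and for each complex.

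**Figure D2:**
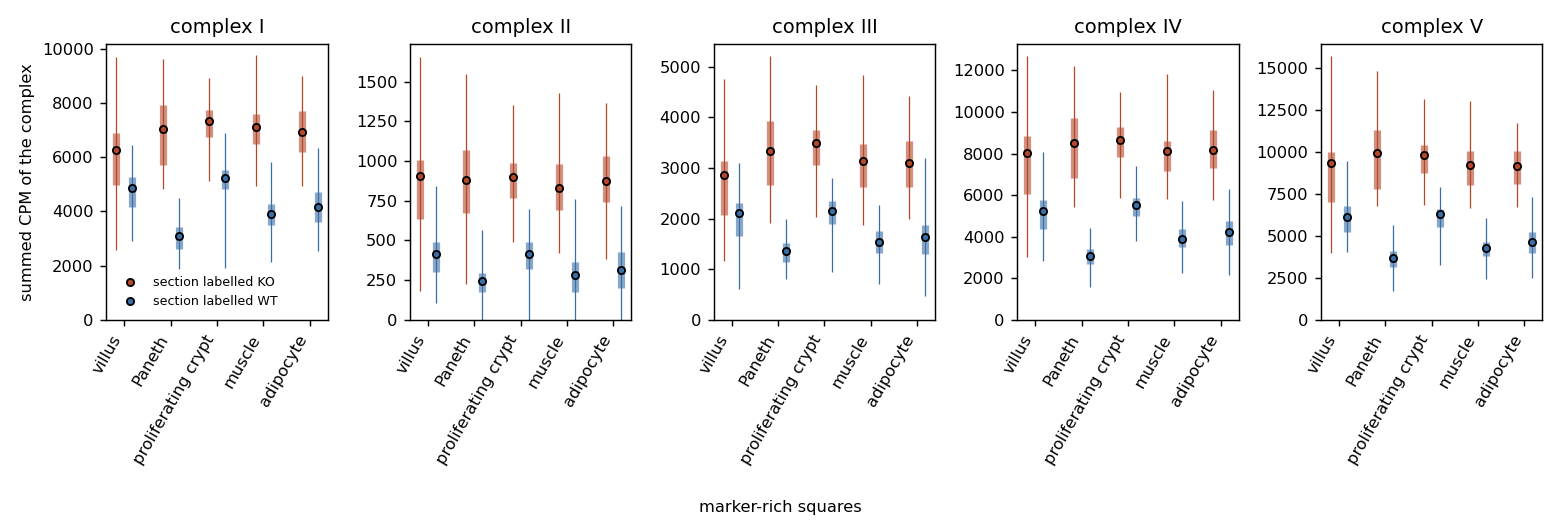
Summed CPM of each complex in squares rich in the markers of 5 cell types, section labelled KO left of section labelled WT. Points are the value over all squares of a kind, thick bars the quartiles and thin bars the range over single squares. Levels in the section labelled WT are lowest in Paneth-rich squares, and those in the section labelled KO are nearly flat.

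Villus-rich over Paneth-rich squares differed between the sections in direction. For the section labelled KO the median log2 ratio of the 73 members with enough counts was −0.10, with 22 above 0 and 51 below, and it turned to 0.031 with squares of 10 units. In the section labelled WT it was 0.69 over 71 members, all of them above 0. The median over all genes was −0.17 in the section labelled KO and 0.53 in the section labelled WT, in the same direction as the members. At least 2-fold apart were 0 members in the section labelled KO (5.97% of all genes were higher and 14.7% lower in villus-rich squares) and 2 in the section labelled WT, Ndufb3 and Cox7c, both higher in villus-rich squares, where 6.27% of all genes were higher and 0.991% lower. With all marker genes and defensins left out of the total, the median in the section labelled WT was 0.25. For complex II the median was 0.12 in the section labelled KO (−0.11 with squares of 40 units) and 0.73 in the section labelled WT, and for complex I it was −0.18 and 0.67 in the same order.

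Villus-rich over muscle-rich squares gave a median of −0.11 in the section labelled KO (0.051 with the top 20% of squares) and 0.43 in the section labelled WT, where the medians over all genes were −0.21 and 0.33. In the section labelled WT 66 of 71 members were above 0, with Ndufa9, an accessory subunit, at 0.94 and Sdhd at 0.93 as the highest. In the section labelled KO the highest were Cox7a1 at 0.96 and Sdhb at 0.57, and the lowest were Atp5g2 at −0.89 and Cox7a2l, a factor for supercomplexes of the chain, at −0.67. Villus-rich over proliferating crypt squares lay close to 0 in both, with medians of −0.14 in the section labelled KO and −0.10 in the section labelled WT, beside −0.33 and −0.10 for all genes. Muscle-rich over Paneth-rich squares gave −0.06 in the section labelled KO (0.080 with squares of 10 units) and 0.27 in the section labelled WT, and the value for the section labelled WT turned to −0.07 with marker genes left out of the total.

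Few members differed by 2-fold or more between the squares of 1 section. For villus-rich over proliferating crypt squares of the section labelled KO it was Cox7a1 alone, at 1.02, where 8.12% of all genes were higher and 24.5% lower. For adipocyte-rich over muscle-rich squares of the section labelled KO it was Cox8b alone, where 1.95% of all genes were higher and 2.58% lower. No member reached 2-fold for villus-rich over muscle-rich squares, where 8.75% of all genes were higher and 18.8% lower in the section labelled KO and 8.09% higher and 5.51% lower in the section labelled WT. The same held for muscle-rich over Paneth-rich squares, where 2.28% of all genes were higher and 0.475% lower in the section labelled KO and 7.8% higher and 0.615% lower in the section labelled WT. In the section labelled WT it held too for villus-rich over proliferating crypt squares (1.15% of all genes higher and 0.077% lower) and for adipocyte-rich over muscle-rich squares (5.51% higher and 3.7% lower).

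Between the sections, squares of the same kind kept the higher level in the section labelled KO. The median log2 ratio of KO over WT was 0.56 in villus-rich squares, 1.32 in Paneth-rich, 0.56 in proliferating crypt, 1.03 in muscle-rich and 0.89 in adipocyte-rich squares, beside −0.15, 0.48, 0.01, 0.27 and −0.03 for all genes in that order of squares. With all marker genes and defensins left out of the total, the members' median was 0.81 in Paneth-rich and 0.83 in muscle-rich squares. That change shifts all genes in a kind of square alike. The 2-fold counts and single ratios that follow use the full total and were not computed without these genes. The summed level of complex II differed most in each kind, by a log2 ratio of 1.12 in villus-rich, 1.85 in Paneth-rich, 1.11 in proliferating crypt, 1.55 in muscle-rich and 1.49 in adipocyte-rich squares. Of the 79 members, 60 were above 0 in all 5 kinds of square, 18 were mixed, and Ndufb2 alone was below 0 in all 5, at −1.83 to −1.09. Over all genes, 24.3% were above 0 in all 5 kinds and 24.1% below 0 in all 5. The section labelled KO was higher by 2-fold or more in 8 of 73 members in villus-rich squares (19.7% of all genes), 56 of 73 in Paneth-rich squares (28% of all genes), 8 of 73 in proliferating crypt squares (13.5%), 37 of 72 in muscle-rich squares (21%) and 33 of 74 in adipocyte-rich squares (19.2%). It was lower by 2-fold or more in Ndufb2 in each kind of square and in Atp5g2 in villus-rich squares, where 26.1% of all genes in villus-rich, 6.81% in Paneth-rich, 9.71% in proliferating crypt, 8.16% in muscle-rich and 13.1% in adipocyte-rich squares were. In villus-rich and proliferating crypt squares the members' count thus stood below the share of all genes, while their median stood above that of all genes. Sdhd had 335 CPM in Paneth-rich squares of the section labelled KO and 67.0 CPM in those of the section labelled WT, a log2 ratio of 2.32. Atp5g1 was above 0 in 1 of the 5 kinds and Atp5g2 in 3.

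Single members went with particular squares in the section labelled KO. Cox7a1 had 149 CPM in villus-rich squares, 109.99 CPM in Paneth-rich, 82.7 CPM in adipocyte-rich, 76.4 CPM in muscle-rich and 73.2 CPM in proliferating crypt squares there, and between 2.77 and 9.42 CPM in the squares of the section labelled WT. Its share of the pair with Cox7a2 was highest in villus-rich squares of the section labelled KO, at 24.4% (23.3 to 25.4). In the section labelled WT it was 3.38% there (30 counts, 2.29 to 4.79). That interval overlaps the one for Paneth-rich squares of the section labelled WT (2.19%, 21 counts, 1.36 to 3.32). The 12 striated muscle markers summed to 46.3 CPM in the villus-rich squares of the section labelled KO and to 99.5 CPM in its muscle-rich squares. Over all squares they summed to 54.0 CPM in the section labelled KO and 26.8 CPM in the section labelled WT. The source of Cox7a1 was not tested.

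Cox8b instead went with the adipocyte-rich squares. It had 542 of the section's 889 counts there, or 73.6 CPM, against 6.58 CPM in muscle-rich squares of the same section, an 11.2-fold difference (log2 ratio 3.48, 2.88 to 4.15). Its share of the pair with Cox8a was 13.2% in adipocyte-rich squares of the section labelled KO and 0.393% in villus-rich ones. In the adipocyte-rich squares of the section labelled WT it had 0 counts. Against a floor of 3 counts there, its level in those of the section labelled KO was 41.4-fold (log2 ratio 5.37). The lower limit of the log2 ratio was 5.07. The adipocyte markers themselves summed to 12538 CPM in these squares of the section labelled KO and 723 CPM in those of the section labelled WT. The ratio therefore does not compare like squares. Of the 7 brown or beige adipocyte markers, Ucp1, Elovl3 and Otop1 were at 0 in the adipocyte-rich squares of both sections, and the list summed to 56.5 CPM in those of the section labelled KO and 43.3 CPM in those of the section labelled WT. Over all squares it summed to 46.1 CPM in the section labelled KO and 47.8 CPM in the section labelled WT, and the source of Cox8b was not tested. The shares of the c subunit genes varied less, with Atp5g3 between 81.3% and 88.2% in the squares of the section labelled KO and between 63.3% and 67.7% in those of the section labelled WT.

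**Figure D3:**
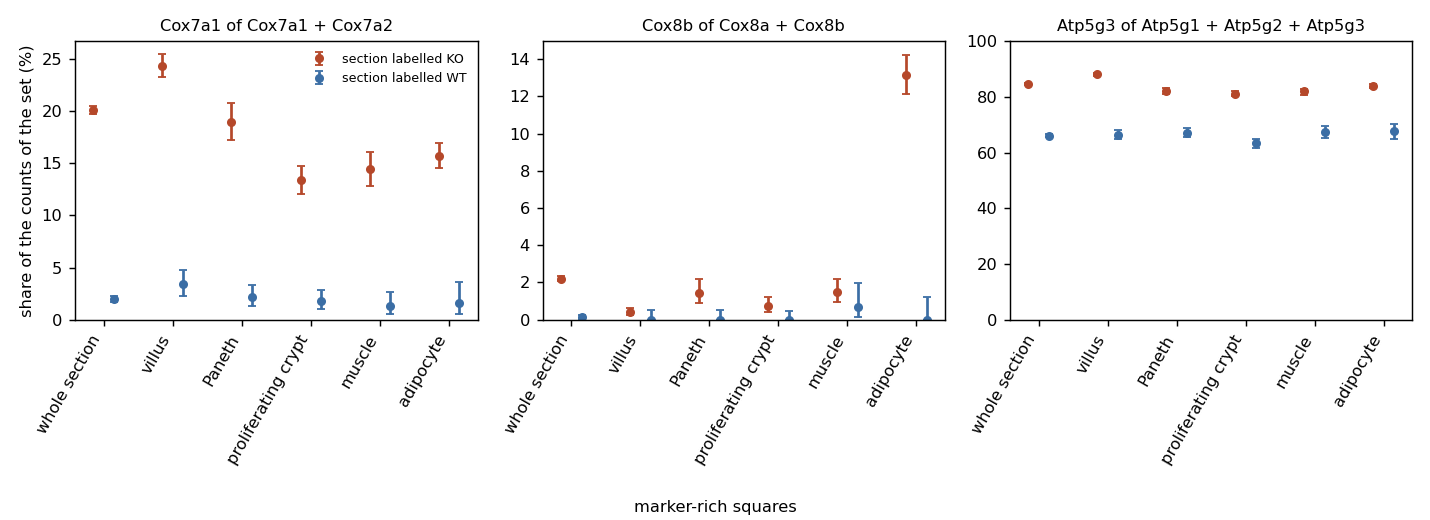
Share of 1 isoform in the counts of its set, in whole sections and in marker-rich squares, section labelled KO left of section labelled WT, with 95% Clopper-Pearson intervals. In the section labelled KO, Cox7a1 is highest in villus-rich squares (24.4%) and Cox8b in adipocyte-rich squares (13.2%). Atp5g3 lies between 81.3% and 88.2% in the squares of that section.

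The map of single squares shows how the members' level lay in the tissue. Over the 2101 squares of the section labelled KO the sum ran from 11476 to 44763 CPM with a median of 27981 CPM, and over the 1302 squares of the section labelled WT from 6731 to 25749 CPM with a median of 15837 CPM. By distance from the middle of the section, a grouping made after the map had been seen, the sum in the section labelled KO was 26211 CPM within 100 position units and 34624 CPM between 500 and 600 units. In the section labelled WT it ran the other way, with 19595 CPM within 100 units and 10804 CPM between 500 and 600 units. Paneth markers in the same rings of the section labelled WT were at 42140 CPM and 201422 CPM, and in those of the section labelled KO at 8212 CPM and 9918 CPM, and the part of these markers in the gradient was not tested.

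**Figure D4:**
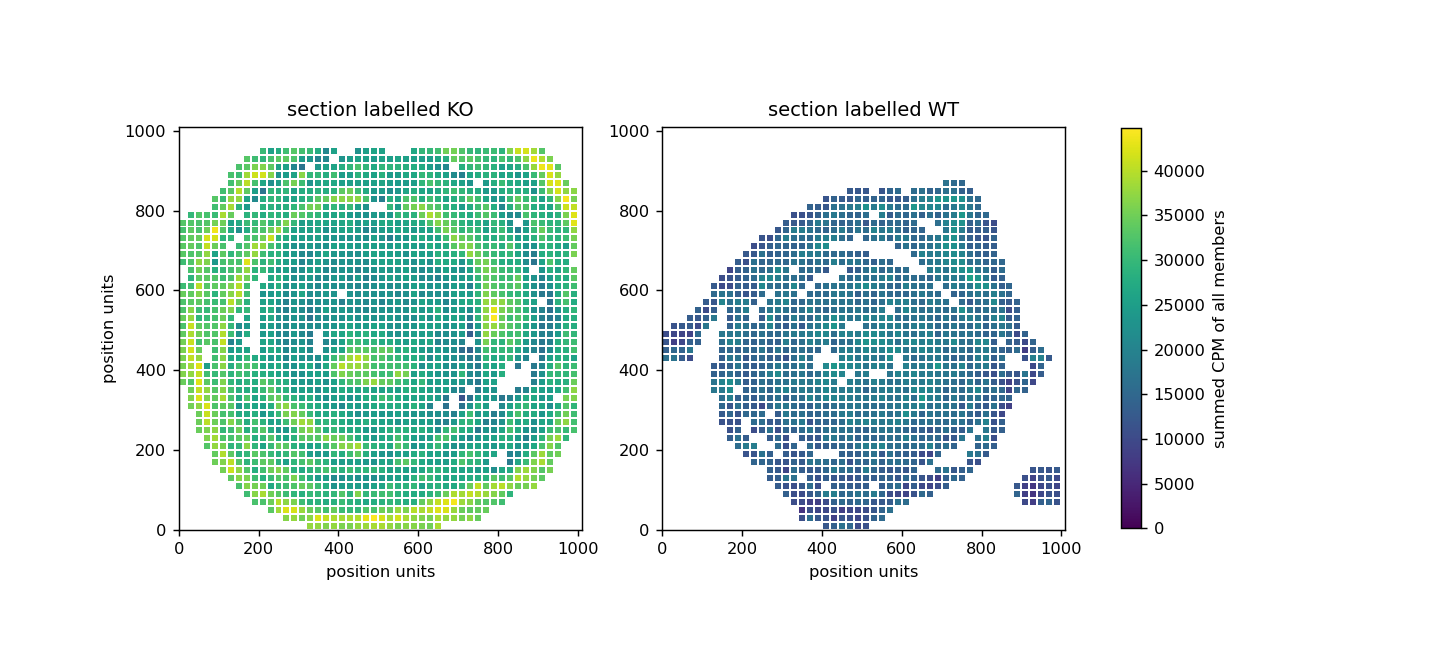
Each square of 20 position units is coloured by the summed CPM of all members, on 1 scale for both sections, section labelled KO on the left. Squares of the section labelled KO reach 44763 CPM and are on average highest in the outermost ring (34624 CPM), and squares of the section labelled WT reach 25749 CPM and are on average lowest there (10804 CPM).

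The levels of the complexes varied together from square to square, complex II least closely. It also had the fewest counts. In the section labelled WT these were 12965 over 1302 squares, with the lowest square at 0, where each other complex had 70204 or more. In the section labelled KO they were 80097, where each other complex had 285894 or more. The part of counting error in its lower correlations was not tested. In the section labelled WT the Pearson correlation of complex II was 0.35 with complex I, 0.33 with III, 0.41 with IV and 0.45 with V. In the section labelled KO it was 0.65, 0.64, 0.71 and 0.71 in that order. Across squares, the summed levels of complexes I and V had a Pearson correlation of 0.85 in the section labelled KO and 0.71 in the section labelled WT, as a description of points that share barcodes, depth and totals. The sum of all members correlated with the proliferating crypt markers at 0.14 in the section labelled KO and 0.72 in the section labelled WT. With Paneth markers it correlated at 0.04 in the section labelled KO and −0.67 in the section labelled WT. Counts per barcode correlated with it only weakly, at 0.21 in the section labelled KO and −0.09 in the section labelled WT.

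Other mitochondrial genes were set beside the members in lists by function. Of all 14516 genes, 6208 had ratios above 0 and 8308 below. Enzymes of the citric acid cycle and pyruvate dehydrogenase came closest, with a median log2 ratio of 0.73 and 15 of 18 genes above 0. Of the 18, 7 were at least 2-fold higher, beside 15.7% of all genes, and Ogdh was highest at 2.12. The 7 measured adenine nucleotide carriers and porins had a median of 0.72, with Ckmt1, the mitochondrial creatine kinase, at 1022 CPM in the section labelled KO and 127 CPM in the section labelled WT (3.01). Mobile electron carriers and coenzyme Q enzymes had a median of 0.47, with cytochrome c, Cycs, highest at 1.69 and Coq8b lowest at −0.50. The synthase inhibitor and inner membrane list stood at 0.47, led by Atpif1, the inhibitor of ATP synthase, at 1.54. The 48 measured assembly factors of the complexes had a median of 0.38, with 30 above 0 and 18 below, from Cox15, which makes haem for complex IV, at 2.01 to Cox18 at −1.16.

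Lists of genes that build mitochondria stood near the median of all genes, which was −0.18. The 22 import genes had a median of −0.33 with 16 below 0, from Pam16 at 0.39 to Grpel1 at −1.17, and the 78 mitochondrial ribosomal proteins had a median of −0.24 with 52 below 0, from Mrpl34 at 1.39 to Mrps18b at −1.91. Regulators of mitochondrial biogenesis were split, with 10 above 0 and 11 below and a median of −0.13, and median-of-ratios scaling, which shifts all genes by 0.18, gave 0.048. Ppargc1a, the coactivator PGC-1α, which is also on the brown or beige adipocyte list, was the highest of them, with 37.1 CPM in the section labelled KO and 3.34 CPM in the section labelled WT (log2 ratio 3.47, 3.22 to 3.74), and Gabpb2 the lowest at −1.60. The uncoupling and antioxidant list stood at 0.05, with 4 of 8 on each side, from Prdx5 at 1.81 to Prdx3 at −0.53.

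Outside mitochondria, glycolysis had a median of 0.60 with 12 of 17 genes above 0. Cytosolic ribosomal proteins lay on the other side, with a median of −0.99 and 83 of 85 below 0. In the section labelled KO 39 were lower by 2-fold or more, beside 19.7% of all genes. The ribosomal proteins ran from Rps4l at 0.84 to Rps27 at −2.19. They summed to 33505 CPM in the section labelled KO and 66704 CPM in the section labelled WT. Within the section labelled KO they also differed between squares, with a median of −1.18 for villus-rich over Paneth-rich squares, where the members stood at −0.10.

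**Figure D5:**
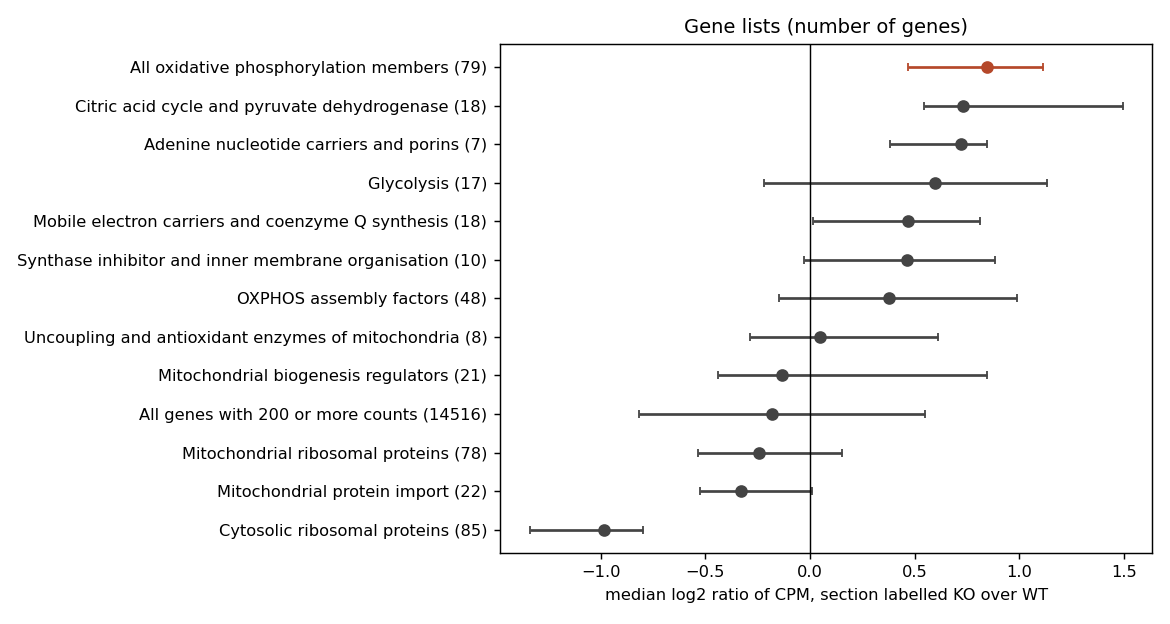
Median log2 ratio of CPM, section labelled KO over section labelled WT, for each list over genes with 200 or more counts, with bars from the lower to the upper quartile of its genes. The oxidative phosphorylation genes (0.85) stand at the top, followed by the citric acid cycle (0.73), and cytosolic ribosomal proteins (−0.99) at the bottom.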

How the data were processed

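The authors deposited, for each section, a matrix of counts per gene and barcode with the position of each barcode. Counts were kept as deposited, and GRCm38 is the build per the submitters' processing notes. The aligner, the counting, the collapsing of molecular identifiers and the unit of the positions were not given in the sources used here. Both sections share 45557 barcode names, which mark array positions. CPM were computed here from the sums over every barcode of a section. Of 54752 features, 94 repeat a symbol and were summed. The totals were 89754886 counts (median 932 per barcode) in the section labelled KO and 39824941 (median 721) in the section labelled WT, where 3 counts correspond to 0.0334 and 0.0753 CPM.

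Members and lists were chosen with earlier results of these data known. Genes below 200 counts over both sections were left out. Intervals of levels, ratios and shares are exact Poisson, conditional binomial or Clopper-Pearson intervals at 95% and cover counting error only. Those of medians are exact binomial intervals at 95% over the genes of a complex. The parts and the squares of a section are no replicates, no test was made, and no barcodes were removed as doublets, since a spot can hold several cells. Complexes were assigned by role. Named were, in each complex, the 2 genes with the most counts, the 2 highest and the 2 lowest ratios, all Sdh genes, all isoforms, the highest and lowest of each function list, and the 2 highest and lowest of each comparison of squares. A few genes that this rule or their role would name are not reported here. Other members were named by role after their values had been seen. Alternatives changed the scaling, the genes in the total, the barcodes, the filter, the size of squares, the share of squares and the assignment to complexes. The ratio and interval steps were tested on simulated counts. Python 3.11.15, numpy 2.4.6, scipy 1.17.1, pandas 2.3.3 and matplotlib 3.10.9 were used.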

Additional observations from a re-analysis of the deposited data

Results flagged for a closer look

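Several comparisons between squares ran in opposite directions in the sections, and the difference between the sections was not tested. The directions do not hold under every alternative: in the section labelled KO the median over all members turned to 0.031 for villus-rich over Paneth-rich and to 0.080 for muscle-rich over Paneth-rich squares with squares of 10 units, and to 0.051 for villus-rich over muscle-rich squares with the top 20%. Muscle-rich over Paneth-rich squares of the section labelled WT turned to −0.069 without marker genes in the total. With squares of 10 units the median for villus-rich over Paneth-rich squares of the section labelled KO was 0.042 over complex III, 0.19 over complex IV and 0.076 over complex V. Villus-rich over Paneth-rich squares gave a log2 ratio of the summed CPM of all members of −0.11 in the section labelled KO and 0.71 in the section labelled WT. By complex it was −0.16 and 0.66 for complex I, −0.23 and 0.64 for complex III, −0.077 and 0.78 for complex IV and −0.089 and 0.73 for complex V, in the same order of sections. Villus-rich over muscle-rich squares gave −0.054 in the section labelled KO and 0.43 in the section labelled WT for all members, with −0.18 and 0.32 for complex I and −0.14 and 0.45 for complex III. Muscle-rich over Paneth-rich squares gave −0.060 in the section labelled KO and 0.28 in the section labelled WT for all members, with −0.085 and 0.22 for complex II, −0.085 and 0.19 for complex III, −0.061 and 0.35 for complex IV and −0.10 and 0.21 for complex V.

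Some names ending in -ps, which the choice of members left out, had counts above the limit that a count of 0 allows. Atp5l2-ps had 12667 counts in the section labelled KO and 2327 in the section labelled WT, more than many members, and a log2 ratio of 1.27. Atp5l-ps1 had 622 counts in the section labelled KO and 152 in the section labelled WT, Uqcrh-ps2 had 52 and 17, Atp5k-ps2 had 43 and 11, and Atp5c1-ps had 16 and 4, in the same order.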

How the results depend on the processing

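No paired analysis was possible because each genotype had 1 section and no test was made. Leaving out each of the 4 parts of each section in turn gave medians from 0.80 to 0.87 over all members, 0.65 to 0.74 over complex I, 1.27 to 1.32 over complex II, 0.84 to 1.01 over complex III, 0.95 to 1.05 over complex IV and 0.81 to 0.88 over complex V. Scaling by the median of ratios shifted all genes by 0.18, and total counts without Paneth and enterocyte markers by −0.17. A shift of all genes alike cannot change the distance of the members from the median of all genes, so its value of 1.03 under each shows nothing about the scaling. Over barcodes rich in epithelial markers the median of all genes was not computed. The median of the members was 1.03 under median of ratios, 0.68 without Paneth and enterocyte markers and 0.59 over barcodes rich in epithelial markers, where complex I stood at 0.43. At least 2-fold higher were 42 members under median of ratios (18.8% of all genes) and 19 without Paneth and enterocyte markers (13.2%). Over barcodes rich in epithelial markers 12 were at least 2-fold higher, and with a minimum of 50 counts 2 were at least 2-fold lower. For these latter settings the share of all genes was not computed. Over all genes the main scaling gave 2279 higher by 2-fold or more and 2862 lower, against 2733 and 2261 under median of ratios. The list medians that moved were, over barcodes rich in epithelial markers, the citric acid cycle at 0.43, cytosolic ribosomal proteins at −1.31, import at −0.59 and mitochondrial ribosomal proteins at −0.51, with cytosolic ribosomal proteins at −0.80 under median of ratios and mitochondrial ribosomal proteins at −0.42 without Paneth and enterocyte markers.

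Between the sections, Paneth-rich squares gave 1.55 with the top 5% of squares, 1.14 with the top 20% and 0.81 without marker genes in the total, and muscle-rich squares 1.15, 0.88 and 0.83. Within the section labelled KO, muscle-rich over Paneth-rich squares turned to 0.080 with sides of 10 units and to 0.00509 with markers weighed alike, and gave −0.094 as the median over squares. Villus-rich over Paneth-rich squares turned to 0.031 with sides of 10 units, and gave −0.23 with sides of 40 or the top 5%, −0.015 with the top 20%, −0.037 with markers weighed alike and −0.21 over squares. Villus-rich over muscle-rich squares gave −0.17 with the top 5% and 0.051 with the top 20%. Within the section labelled WT, muscle-rich over Paneth-rich squares turned to −0.069 without marker genes (complex II −0.080, complex IV −0.016, complex V −0.077) and gave 0.39 with sides of 10, 0.40 with the top 5% and 0.21 with the top 20%, while complex V in the section labelled KO turned to 0.075 with sides of 10. Villus-rich over Paneth-rich squares gave 0.77, 0.92 and 0.54 in that order and 0.25 without marker genes, villus-rich over muscle-rich squares 0.55 with the top 5% and 0.34 with the top 20% and without marker genes, and villus-rich over proliferating crypt squares −0.039 with the top 20%. The cause of these turns was not tested.

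With the top 5% of squares, shares in the section labelled KO were 17.2% for Cox8b, 9.73% for Atp5g1 and 83.3% for Atp5g3 in adipocyte-rich squares, 21.0% for Cox7a1 in Paneth-rich and 3.90% for Cox6b2 in villus-rich squares, and Atp5g1 had 22.4% in Paneth-rich squares of the section labelled WT. With the top 20%, adipocyte-rich squares of the section labelled KO gave 11.4% for Cox8b, 17.3% for Cox7a1, 8.06% for Atp5g1, 85.2% for Atp5g3 and 2.84% for Cox6b2, its muscle-rich squares 16.4% for Cox7a1, 8.18% for Atp5g1 and 84.0% for Atp5g3, its proliferating crypt squares 0.403% for Cox8b and 1.40% for Cox6b2, and its villus-rich squares 2.50% for Cox6b2. Depth limits Cox8b in the section labelled WT, where it had 9 counts.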
